A study of Rattus norvegicus with 6 samples.

Results

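Untreated back skin of the Sprague-Dawley rat, an outbred laboratory strain, was described from its 2 RNA sequencing libraries, out of 6 in the series. The members are the samples that the labels give as untreated skin, and no treated sample entered any value. The study set this skin against skin with a rash brought on by gefitinib or afatinib, inhibitors of the epidermal growth factor receptor (EGFR). The samples are labelled WT, no transgene is named, and the sources used here do not give their age or sex. The skin was frozen on dry ice, its total RNA was extracted with Trizol and made into libraries with a TruSeq kit. The labels number the libraries as replicates 1 and 2 without saying that they came from separate animals. Whether the spread between them is technical or lies between animals was not tested. With 2 libraries of 1 group there is no comparison of conditions here and no test: levels, shares and ranks are given for each library.

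Skin is built in layers. Keratinocytes of the epidermis divide in the basal layer, make keratins as they move up and end as a dead, cross-linked barrier. Below lie a dermis of collagen, elastic fibres, vessels and nerves, hair follicles that cycle between growth and rest, and a layer of fat. In rodents a thin sheet of striated muscle, the panniculus carnosus, lies under the fat and moves the skin. A piece of back skin is a mixture of all of these, and in such bulk RNA fewer cells of a type and less RNA per cell cannot be told apart.

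Replicate 1 held 20166522 counts and replicate 2 held 22086673. Of 34225 loci, 18487 and 18711 had at least 1 count. Levels between genes are given as FPKM, as deposited: read counts relative to the length of the gene and to a constant of each library. At 1 FPKM or more in both libraries stood 12389 loci (36.2%), and among protein-coding loci 11271 of 22250 (50.7%). At 10 FPKM or more in both stood 5245 loci, at 100 or more 771, and at 1000 or more 90. Neither library had a count for 14537 loci (42.5%).

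The mixture was steep. The 35 most abundant loci held 50% of the summed FPKM in replicate 1, and in replicate 2 the same share took 72 loci. The 10 most abundant held 31.2% and 24.8%, and the 1000 most abundant 84.5% and 80.2%. To reach 90% took 2019 loci in replicate 1 and 2725 in replicate 2, so replicate 1 was the more concentrated of the libraries. Of the 100 most abundant loci in each library, 88 were shared. Below the peak the level dropped quickly: among loci at 1 FPKM or more the median was 7.52 FPKM in replicate 1 and 8.13 in replicate 2.

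The most abundant transcript of this skin was muscle actin. Acta1, the thin filament actin of skeletal muscle, stood at 55251 FPKM in replicate 1 and 48502 in replicate 2 and took 5.40% and 5.82% of the summed FPKM. It ranked first in both libraries. Its level was 328 and 687 times that of Krt14, the type I keratin of basal keratinocytes, and 24.0 and 46.7 times that of Col3a1, the most abundant collagen. The interval of Krt14 overlaps other keratins, so its reads may be split or lost and the ratios to it are uncertain. Of the 30 named loci with the highest mean FPKM, 16 belong to the skeletal muscle lists, 9 lie on the mitochondrial chromosome and 1, Car3, is on the adipocyte list. The other 4 were the glycolytic enzyme gene Aldoa, the mitochondrial ADP/ATP carrier gene Slc25a4, the translationally controlled protein gene Tpt1 and Mir675. No keratin and no collagen was among the 30.

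Since Acta1 leads the ranking, its promoter is shown as the sequence in front of the most used gene. The 250 bases before its start, from RefSeq on build GRCr8 at chr19:68784195-68784444 on the minus strand, are printed 5′ to 3′ with 2 kinds of motif in capitals and all other bases, GC boxes included, in lower case. The capitals mark a CArG box, the site bound by serum response factor, which begins 94 bases before the start, and TATAAA, which begins 29 bases before it.
Acta1 promoter: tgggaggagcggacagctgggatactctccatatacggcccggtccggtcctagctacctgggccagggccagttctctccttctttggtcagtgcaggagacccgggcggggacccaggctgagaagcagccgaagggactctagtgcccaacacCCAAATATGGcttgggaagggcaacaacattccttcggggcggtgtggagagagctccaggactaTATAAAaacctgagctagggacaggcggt

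Mir675 was the other leading locus that does not code for protein. It is an 84-base microRNA hairpin gene that stood at 22674 FPKM (27295 counts) in replicate 1 and 16921 FPKM (24090 counts) in replicate 2, ranks 7 and 8. The files place it at chromosome 1, bases 215745981 to 215746064, between Mrpl23 and Igf2, in the build they use, which no source used here names. In RefSeq's GRCr8 annotation the hairpin lies inside H19, the imprinted long noncoding RNA gene. No locus of the files carries the symbol H19, so reads from the hairpin and from its host transcript cannot be told apart. The short length of the locus also multiplies its FPKM: it held 2.22% and 2.03% of the summed FPKM, from 27295 of 20166522 counts in replicate 1 and 24090 of 22086673 in replicate 2. The hairpin and its mature arms follow, since this is the only microRNA gene near the top of the ranking. In the hairpin the capitals mark the mature arms, and in the arms they mark the seed, bases 2 to 8. RefSeq places the hairpin on the minus strand of GRCr8 at chr1:207161752-207161835, and the seeds of the arms differ from each other.
Mir675 hairpin: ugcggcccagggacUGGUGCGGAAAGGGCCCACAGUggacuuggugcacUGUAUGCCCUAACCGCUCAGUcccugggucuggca
rno-miR-675-5p: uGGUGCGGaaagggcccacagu
rno-miR-675-3p: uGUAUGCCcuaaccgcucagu

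The layers were measured with lists of marker genes, as the share of the summed FPKM of a library. Skeletal muscle, with 72 matched loci, held 25.8% in replicate 1 and 23.8% in replicate 2 (mean 24.8% ± 1.41, SD, n = 2). The dermis lists (94 loci) held 0.884% and 0.618%, the adipocyte list (20 loci) 0.584% and 0.863%, the epidermis lists (100 loci) 0.141% and 0.156%, and the hair follicle lists (75 loci) 0.0488% and 0.0647%. Summed muscle FPKM was thus 183 and 153 times that of the epidermis lists and 29.2 and 38.5 times that of the dermis lists. As shares of raw counts, which weight long genes more, muscle held 27.6% (95% Wilson interval 27.6% to 27.6%) and 26.5% (26.4% to 26.5%). The dermis held 2.42% (2.42% to 2.43%) and 1.41% (1.41% to 1.42%), and the epidermis 0.294% (0.291% to 0.296%) and 0.288% (0.286% to 0.290%). These intervals cover counting error only. Muscle came first on both scales in both libraries. Fat stood above the epidermis mainly through Car3, which muscle shares. Without Car3 the fat list held 0.124% and 0.166%, below the epidermis in replicate 1 and above it in replicate 2. The rest of the list still includes Slc2a4 (306 and 367 FPKM), also a muscle gene, so the order in replicate 2 may rest on that gene. Without Postn and Cd34, which fibroblasts share, the hair follicle lists held 0.0204% and 0.0448%. The shares without Car3 and without Postn and Cd34 were added after seeing the data. In replicate 2 the fat list stood above the dermis lists by FPKM and below them by counts.

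**Figure D1:**
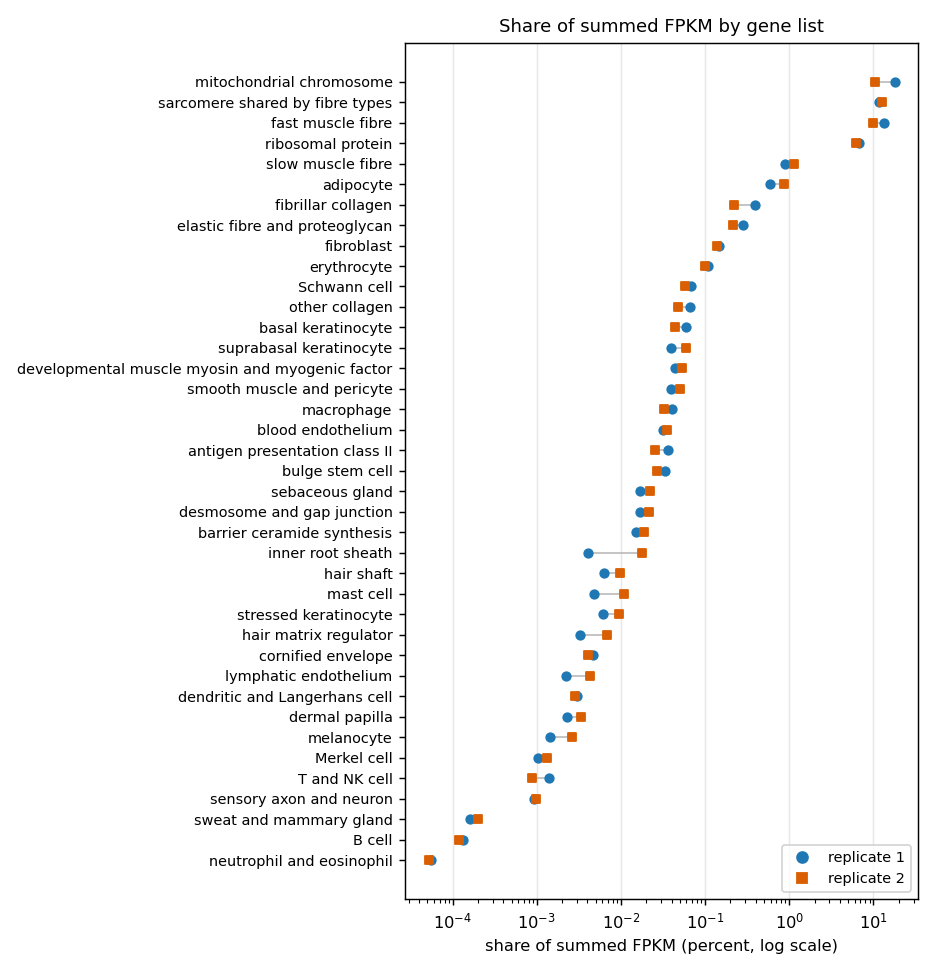
Share of the summed FPKM of each untreated library (percent, log scale) held by each gene list, circles for replicate 1 and squares for replicate 2. Fast-fibre genes (13.3% and 10.01%), shared sarcomere genes (11.6% and 12.6%) and the mitochondrial chromosome (18.1% and 10.4%) stand far to the right of the basal keratinocyte list (0.0594% and 0.0434%), and the inner root sheath list (0.00408% and 0.0179%) has the widest gap among the lists drawn.

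The muscle was mostly of the fast kind. Fast-fibre genes, 12 matched loci, held 13.3% and 10.01% of the summed FPKM, and slow-fibre genes, 13 loci, 0.899% and 1.14%. All 12 fast genes were at 100 FPKM or more in both libraries. The fast calcium sensor Tnnc2 stood at 33907 and 18325 FPKM, the fast regulatory light chain Mylpf at 30038 and 17114, the fast troponin T Tnnt3 at 20316 and 13397, and the light chain Myl1 at 19420 and 10649. Their values in replicate 1 were all higher than in replicate 2. Pvalb, the calcium buffer of fast fibres, stood at 12392 and 5988 FPKM. Among slow-fibre genes the oxygen store Mb led at 7106 and 6811 FPKM. Behind it came the light chain Myl3 (535 and 791), the troponin T gene Tnnt1 (437 and 414) and Tnnc1 (309 and 359). The slow myosin heavy chain Myh7 stood at 62.4 and 217 FPKM.

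Genes of the sarcomere and its energy supply that all fibres share held 11.6% and 12.6%. After Acta1 came the muscle creatine kinase Ckm (17547 and 16752 FPKM), the tropomyosin Tpm2 (17492 and 12364) and the muscle enolase Eno3 (6870 and 5380). Of 29 such loci all stood at 10 FPKM or more in both libraries. The list of developmental myosins and myogenic factors held 0.0440% and 0.0531%. It was led by the muscle regulatory factor Myf6 (145 and 118 FPKM). Also on it were Myl4 (60.1 and 47.1) and Myog (34.8 and 39.0). Embryonic myosin Myh3 stood at 19.3 and 11.1 FPKM and neonatal Myh8 at 3.87 and 3.31.

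In the actin, creatine kinase and enolase families, the form known from muscle led. Acta1 held 99.1% and 99.1% of the FPKM of its family of 6 actins. The cytoplasmic Actb stood at 392 and 334 FPKM, the smooth muscle actins Acta2 at 62.6 and 78.0 and Actg2 at 1.92 and 4.90, Actg1 at 31.6 and 27.7, and cardiac Actc1 at 8.67 and 10.7. In the creatine kinase family Ckm held 98.4% and 98.6%, with the mitochondrial Ckmt2 at 211 and 175 FPKM and the brain form Ckb at 73.1 and 52.4. Ckmt1 stood at 4.36 and 2.81. Enolase was Eno3 to 98.5% and 98.4%, at 65.1 and 63.4 times the level of the general form Eno1 (106 and 84.8), while Eno4 and the neuronal Eno2 were under 1 FPKM.

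Glycolytic and glycogen genes came next. The muscle phosphoglycerate mutase Pgam2 (4652 and 2974 FPKM) stood at 110 and 79.1 times the level of Pgam1 (42.3 and 37.6). The muscle glycogen phosphorylase Pygm (2420 and 3804) held 99.8% and 99.9% of its family, over the brain form Pygb (2.66 and 2.33) and the liver form Pygl (1.94 and 1.93). The muscle phosphofructokinase Pfkm (851 and 1417) held 98.5% and 99.2%, over Pfkl (7.48 and 6.82) and Pfkp (5.58 and 4.35). Aldoa (16194 and 17311) led the aldolases, with Aldoc at 4.68 and 2.73 FPKM. Ldha (2155 and 2199) stood at 19.3 and 16.5 times the level of Ldhb, and the testis form Ldhc had 4 and 0 counts. Of the hexokinases Hk2 (24.7 and 53.5 FPKM) stood above Hk1 (8.82 and 6.29), while Hk3 had 4 and 0 counts.

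Transport and respiration genes were read in the same way. The insulin-responsive glucose carrier Slc2a4 stood at 306 and 367 FPKM, 32.3 and 47.6 times the level of Slc2a1, the general carrier (9.48 and 7.69). Slc2a5 was at 0.838 and 0.366, Slc2a3 had 1 and 3 counts, and Slc2a2 had none. Calcium release was Ryr1 (120 and 167 FPKM) with Ryr3 at 1.06 and 1.13 and 2 counts in each library for cardiac Ryr2. The muscle forms of cytochrome oxidase Cox6a2 (3052 and 2271 FPKM) and Cox8b (2743 and 1835) stood above the general forms Cox6a1 (205 and 185) and Cox8a (216 and 162). Cox4i1 stood at 1945 and 1445 and Cox4i2 at 4.63 and 6.66. Troponin T was Tnnt3 to 97.9% and 97.0%, and troponin I was the fast Tnni2 to 96.5% and 92.9%, over the slow Tnni1 (273 and 347). The cardiac forms were low, with Tnnt2 at 6.69 and 2.68 FPKM and 2 counts in each library for Tnni3.

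**Figure D2:**
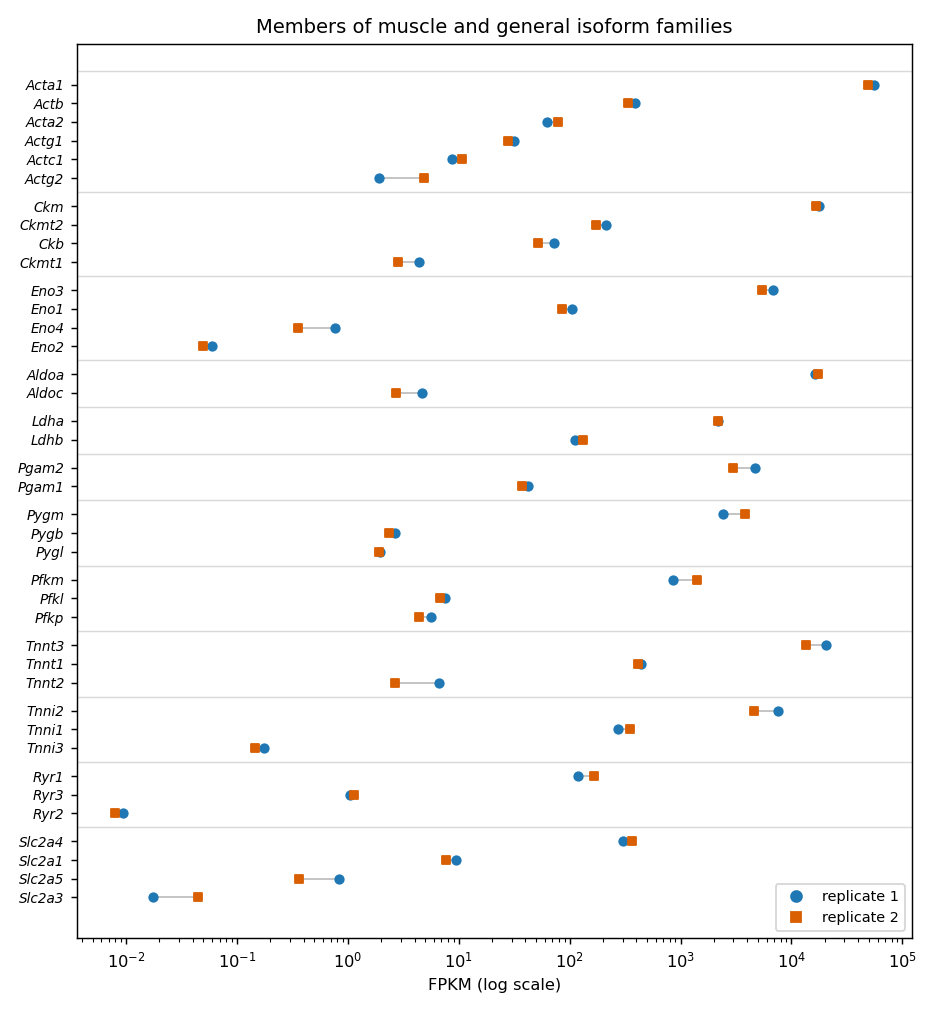
FPKM (log scale) of the members of 12 gene families with tissue forms, circles for replicate 1 and squares for replicate 2. Members listed at 0 in a library are left out, and in the families drawn the first member stands above the others in both libraries, as Ldha does at 19.3 and 16.5 times the level of Ldhb.

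Some muscle loci could not be resolved by name. The locus named Myh1 (chromosome 10, 53713938 to 53848347, exon length 18143 bases) stood at 2251 and 2824 FPKM and held 96.0% and 92.1% of the myosin heavy chain family. It overlaps Myh8 in the files, and RefSeq's GRCr8 annotation has Myh2, Myh1 and Myh4 side by side there, while no locus of the files is named Myh2 or Myh4. The fast myosins therefore cannot be told apart. Myh6 (6.35 and 7.33 FPKM) and Myh7b (2.77 and 2.92) were the other low members. No locus is named Atp2a1, the fast calcium pump. Between Rabep2 and Sh2b1, where RefSeq's GRCr8 annotation has Atp2a1, lay 4 loci without a gene symbol. Together they held 2.24% and 3.73% of the summed FPKM, and the leading one stood at 13015 and 13698 FPKM, while the named pump genes were Atp2a2 (42.5 and 101) and Atp2a3 (9.34 and 7.60). The large titin gene Ttn was not matched either and is not analysed here, so the muscle shares are shares of the named loci.

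Mitochondrial transcripts were the second block. The 37 loci of the mitochondrial chromosome held 18.1% of the summed FPKM in replicate 1 and 10.4% in replicate 2, and 12.6% and 6.47% of the counts. Its 13 protein-coding genes gave nearly all of it, 17.8% and 10.2%. Mt-co3 stood at 40542 and 19527 FPKM, Mt-atp6 at 41003 and 18517 and Mt-co1 at 37468 and 20141, subunits of cytochrome oxidase and ATP synthase. At the low end were Mt-atp8 (242 and 89.1) and Mt-nd4 (1254 and 223), and Mt-nd6, the gene read from the other strand, stood at 2698 and 1139. The nuclear partners were less abundant. Named complex I subunits (36 loci) held 1.30% and 1.26%, cytochrome oxidase subunits (20 loci) 1.56% and 1.41%, and ATP synthase subunits (16 loci) 1.36% and 1.48%. Ribosomal protein genes (90 loci) held 6.66% and 6.14%, and 66 of them stood at 100 FPKM or more in both libraries.

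The dermis was collagen-led. Col3a1 stood at 2305 FPKM in replicate 1 and 1039 in replicate 2, Col1a1 at 1368 and 634, Col1a2 at 211 and 110 and Col5a2 at 61.7 and 30.1. Each of these 4 was higher in replicate 1, and their order was the same in both libraries. The matrix-binding glycoprotein gene Sparc (2107 and 1202 FPKM) stood between Col3a1 and Col1a1 in replicate 1 and above both in replicate 2. Next on the matrix list came Postn (232 and 125), elastin Eln (79.8 and 58.2) and the proteoglycan Bgn (65.4 and 48.9). Collagen VI followed with Col6a2 (202 and 108) and Col6a1 (159 and 81.6), and basement membrane collagen with Col4a1 (101 and 66.9) and Col4a2 (59.4 and 39.7). Fibroblast markers were led by the proteoglycan Dcn (581 and 432), Dpt (270 and 207), Clec3b (233 and 168) and Mfap5 (68.4 and 50.9). Mfap4 and Col25a1 had no count in either library. Of the lysyl oxidases, which cross-link collagen and elastin, Lox stood at 30.3 and 14.8 FPKM, Loxl1 at 24.5 and 22.7, Loxl2 at 17.2 and 6.43, Loxl3 at 3.86 and 1.90 and Loxl4 at 3.14 and 1.84.

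Fat markers were detected at uneven levels. Car3, a carbonic anhydrase abundant in adipocytes and in slow muscle, stood at 4703 and 5807 FPKM and made up most of the list. The adipocyte fatty acid carrier Fabp4 stood at 577 and 625 FPKM, and Cfd, the complement factor adipsin, at 177 and 127. Slc2a4, above, is on this list and is also a muscle gene. The more selective markers were low: adiponectin Adipoq stood at 8.90 and 5.93 FPKM, Pparg at 3.01 and 2.55 and Cidec at 2.33 and 1.42. Plin1, also on the list, stood at 0.863 and 0.552. Ucp1, the uncoupling protein of brown fat, had no count in either library. In the fatty acid binding family the muscle form Fabp3 (208 and 283) and the keratinocyte form Fabp5 (57.7 and 169) followed Fabp4. Fabp1 had 4 and 0 counts, Fabp12 had 1 and 2, and Fabp2, Fabp6, Fabp7 and Fabp9 had none.

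The epidermis had a small share, though its basal genes were detected in both libraries. All 12 matched basal keratinocyte genes stood at 1 FPKM or more in both libraries. Krt15 was highest at 172 and 87.9 FPKM (rank 531 and 966), then Krt14 at 169 and 70.6, Krt5 at 131 and 80.4 and the cytolinker Plec at 26.3 and 39.8. Plec is expressed in muscle too. Suprabasal genes were led by the galectin Lgals7 (182 and 218 FPKM) and Fabp5, then Krt10 (62.8 and 35.7) and Krt1 (54.5 and 24.2), the keratin pair of differentiating layers. Krt14 was 2.68 and 1.98 times as high as Krt10. Among desmosome and junction genes, Perp (60.7 and 48.6) and plakoglobin Jup (34.4 and 48.6) led, with the desmosome plaque protein Dsp at 14.5 and 10.4 and the cadherin Dsc3 at 10.8 and 8.29. In the files the interval of Krt5 spans Krt71, Krt73, Krt72, Krt2 and Krt1, and that of Krt14 overlaps Krt17, Krt19 and Krt9, so reads may be split or lost among these keratins.

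As a list, the matched genes of the cornified outer layers stood lower than the basal keratinocyte genes. Of 21 matched cornified envelope genes, 6 stood at 1 FPKM or more in both libraries and none at 10. The inhibitor Cst6 stood at 8.36 and 13.1 FPKM, the transglutaminase Tgm3 at 12.3 and 4.42, periplakin Ppl at 5.35 and 4.06 and sciellin Scel at 4.96 and 2.55. Rptn, Lce3e and Lce1f had no count. The symbols of loricrin, filaggrin and involucrin were not matched, so those defining genes are not analysed here. Ceramide synthesis genes of the barrier stood higher, with Smpd1 at 39.7 and 40.1 FPKM, Degs1 at 32.5 and 32.1, Elovl1 at 18.9 and 20.2 and Elovl4 at 13.2 and 13.5, though most of these serve other cells too. The more barrier-bound Cers3 stood at 0.757 and 0.500 and the acylceramide enzyme gene Pnpla1 had 7 and 10 counts.

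Of 19 matched genes known from stressed or inflamed keratinocytes, 6 stood at 1 FPKM or more in both libraries and 2 at 10 or more. Krt6a, Krt6b and Sprr4 were not matched and are not analysed here. Krt17, also a follicle keratin, stood at 21.0 and 45.4 FPKM, S100a8 at 17.0 and 15.3, the protease inhibitor Stfa2 at 12.9 and 6.08 and Lcn2 at 5.65 and 5.44. Krt17 stood above Krt10 (35.7) and Krt1 (24.2) in replicate 2 and below both (62.8 and 54.5) in replicate 1. Krt16, the hyperproliferation keratin, had 1 and 2 counts, and S100a9 had 10 and 5. Sprr1b, Sprr2d, Sprr3, Il36a, Defb4 and Serpinb3 had no count in either library. A count of 0 here allows up to 0.149 CPM, a count relative to its library's total, in replicate 1 and 0.136 in replicate 2, the size of 3 counts. That limit covers counting error only and does not hold where reads may be lost to overlapping or copied loci.

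Follicle genes separated by compartment. Of the hair shaft genes, S100a3 stood at 35.9 and 29.3 FPKM, but the shaft keratins at lower and less even levels: Krt35 at 8.67 and 29.1, Krt85 at 1.92 and 12.7 and Krt32 at 1.78 and 2.85. Shaft matrix genes were near the floor. None of 29 keratin-associated protein loci reached 1 FPKM in both libraries, and 8 of them had no count, among them Krtap1-3, Krtap31-1, Krtap24-1 and Krtap13-2. Inner root sheath keratins stood at 15.4 and 51.4 FPKM for Krt25, 11.7 and 49.0 for Krt71, 3.57 and 15.0 for Krt73 and 3.09 and 14.8 for Krt28. All 4 were higher in replicate 2. Among follicle regulators stood Bmp4 at 10.6 and 6.94 FPKM, Msx1 at 5.80 and 8.15, Msx2 at 2.54 and 9.70 and Dlx3 at 1.76 and 10.2. Bulge genes were led by Postn and Cd34 (58.7 and 41.0), which fibroblasts share, then Lrig1 (10.8 and 15.3) and Krt79 (10.8 and 13.2), while the stem cell gene Lgr5 had 13 and 35 counts. Dermal papilla genes were led by Fgf7 (8.36 and 10.7) and the BMP antagonist Sostdc1 (7.99 and 8.77), with Alpl at 2.26 and 2.11 and Wif1 at 1.28 and 1.61.

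Sebaceous and lipid genes were led by Scd2 (33.2 and 28.5 FPKM), Plin2 (29.7 and 31.8), Mgst1 (23.9 and 21.8) and Dgat2 (18.9 and 20.4), which other lipid-making cells use as well. The wax synthase Awat2, a sebocyte gene, stood at 1.37 and 5.04, and Elovl6 had no count. No gene of the sweat and mammary gland list reached 1 FPKM in both libraries. Its highest members Krt7 (0.676 and 0.371), Krt8 (0.429 and 0.575), Krt18 and Krt19 are keratins of simple epithelia, and Lalba, Wap, Scgb1d2, Foxa1 and Csn2 had no count. Sprague-Dawley rats are albino. Melanocyte genes were low, and any link to the albino coat was not tested. Mitf stood at 4.53 and 5.66 FPKM, the exchanger Slc24a5 at 3.50 and 3.79, the melanosome gene Pmel at 1.23 and 3.80 and Ednrb at 2.97 and 1.98, while tyrosinase Tyr had 18 and 55 counts.

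Vessels and nerves were visible at moderate levels. Smooth muscle and pericyte genes were led by Rgs5 (139 and 79.6 FPKM), Tagln (62.7 and 88.1), Acta2 and Lmod1 (34.2 and 65.6). Blood endothelium was led by Plvap (60.4 and 55.9), the junction cadherin Cdh5 (44.7 and 33.5), Egfl7 (38.2 and 39.4) and Esam (30.1 and 27.2). Cldn5, the endothelial claudin, had no count in either library, and Pecam1 was not matched. Lymphatic genes were lower, with Ccl21 at 4.92 and 19.2, Pdpn at 11.1 and 12.8, Lyve1 at 4.55 and 1.15 and Flt4 at 1.31 and 1.05. Schwann cells, which wrap peripheral axons, were marked by the myelin genes Pmp22 (166 and 120) and Mbp (40.5 and 27.8), with Cnp at 20.7 and 24.4. Neuronal genes were low. Prph, the intermediate filament of peripheral neurons, stood at 6.57 and 5.86 and Tubb3 at 1.07 and 1.17, while Calca and Tac1 had no count. The cell bodies of sensory neurons lie outside the skin, and the reason for the missing counts was not tested. Of the Merkel cell list only Isl1 stood at 1 FPKM or more in both libraries (9.16 and 9.86), and the Merkel keratin Krt20 had 0 and 1 count.

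The macrophage list held 0.0402% and 0.0329% of the summed FPKM and the class II list 0.0366% and 0.0251%. Lyz2 stood at 131 and 88.9 FPKM, and the complement genes C1qa at 76.0 and 62.9, C1qc at 76.4 and 44.5 and C1qb at 60.7 and 39.6. Class II presentation was led by the invariant chain Cd74 (294 and 155), then RT1-Da (48.3 and 31.2), RT1-Db1 (17.8 and 14.6) and RT1-Ba (6.67 and 1.78). RT1 genes form a polymorphic family whose reads may be split between copies, so their values are uncertain in an outbred strain. Mast cell proteases followed with Mcpt1l1 (23.9 and 51.1), Cma1 (11.6 and 23.3), Cpa3 (5.01 and 4.38) and Tpsb2 (3.74 and 4.07), and Mcpt2 had no count. The Langerhans cell lectin Cd207 stood at 3.08 and 1.52. T and NK cell genes were low apart from Cd4 (6.38 and 2.50), which macrophages of the rat also carry: Cd3g stood at 1.36 and 1.34, Cd3d at 1.161 and 0.655 and Cd2 at 1.09 and 0.437, and Ncr1 and Gzmb had no count. No matched gene of the B cell list or of the neutrophil and eosinophil list reached 1 FPKM in both libraries. Ms4a1, Prtn3, Camp and Prg2 had no count. Blood itself was marked by the globin gene Hba-a2, whose more abundant locus stood at 784 and 586 FPKM. A second locus of that name held 312 and 230, so the near-identical copies cannot be told apart.

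The drug targets of the study were modest in untreated skin. Egfr stood at 3.05 and 2.57 FPKM (182 and 181 counts, rank 9868 and 10389) and Erbb3 at 2.999 and 1.87. Erbb2 stood at 0.794 and 1.32, and Erbb4 had 2 and 3 counts. The fibroblast growth factor receptor Fgfr1 was 8.66 and 7.79 times as high as Egfr, at 26.4 and 20.0 FPKM, with Fgfr4 at 15.4 and 13.6, Fgfr3 at 7.60 and 5.32 and Fgfr2 at 6.36 and 5.71. Egfr is best known in skin from keratinocytes, and its level per keratinocyte is not measured in such a mixture. Of EGFR ligands Hbegf stood at 6.18 and 29.6 FPKM, Egf at 0.951 and 1.37, Epgn at 0.963 and 1.164 and Tgfa at 0.744 and 0.616. The receptor inhibitors Errfi1 (39.2 and 41.9) and Lrig1 stood above every ligand in replicate 1, and Errfi1 did so in replicate 2.

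Other signalling lists followed. Immediate early genes held 0.0997% and 0.120% of the summed FPKM, with Jun at 188 and 152 FPKM, the phosphatase Dusp1 at 136 and 126, Nr4a1 at 91.5 and 164 and Jund at 121 and 107. Clock genes were led by Dbp (102 and 69.5), Nr1d1 (54.9 and 88.5), Bhlhe40 (34.0 and 80.7) and Tef (42.0 and 39.98), and the hour of sampling was not stated. Cell cycle genes were low beyond Pcna (29.9 and 45.7): Cdk1 stood at 4.99 and 6.82, Birc5 at 4.64 and 5.07, Mcm2 at 3.62 and 5.79 and Mki67 at 2.37 and 2.59. Chemokines and cytokines were led by Cxcl14 (61.6 and 63.4), Il33 (36.9 and 33.7), Cxcl12 (27.01 and 20.5) and Ccl27 (21.8 and 8.14). Il1a, Il6, Il10, Il13, Il17a, Il22, Ifng and Ccl19 had no count in either library. Nuclear receptors were led by Esrra (55.6 and 59.6), Nr1h2 (39.1 and 35.2), Rxra (18.2 and 47.3) and Rxrg (26.6 and 33.7), and Esr2 and Nr1i2 had no count.

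Transport and adhesion families added detail. Aqp1, the water channel of capillaries, led the aquaporins at 247 and 184 FPKM, followed by Aqp4 (19.5 and 29.3), which fast muscle fibres carry, the keratinocyte channel Aqp3 (9.07 and 5.46) and Aqp7 (3.69 and 5.77), while Mip, Aqp2 and Aqp6 had no count. Claudins were low, with Cldn1 at 7.44 and 6.94, Cldn12 at 7.16 and 7.34, Cldn22 at 4.56 and 1.87 and Cldn19 at 4.12 and 2.15, and none of 19 reached 10 FPKM in both. Gja1 led the connexins (31.3 and 42.6), then Gja4 (9.05 and 12.9), Gjc1 (9.26 and 9.01) and Gjb2 (3.43 and 13.9). Laminin chains of muscle and vessel basement membranes, Lamb2 (67.0 and 64.3), Lamc1 (29.2 and 34.0) and Lama2 (22.5 and 15.2), stood above the epidermal chain Lamb3 (4.57 and 2.71).

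Of 925 loci that the files mark with 1 of 28 DNA-binding domains of transcription factors, 421 stood at 1 FPKM or more in both libraries. The set is not complete: it leaves out loci that the files mark with the Jun family or with no such domain, among them Jun, Jund and Nr4a1, whose levels are given above. Within it Atf4, the stress response factor, stood at 242 and 213 FPKM and Cebpb at 162 and 127. Other high members were Nfe2l1 (66.7 and 171), Fos (104 and 77.6), Cebpd (89.4 and 91.4), Dbp, Mef2c (68.8 and 98.2), Atf5 (102 and 63.0), Foxo4 (72.6 and 88.0), Klf2 (82.2 and 61.3) and Nr1d1. Mef2c is a regulator of muscle genes. Tp63, the basal keratinocyte factor, stood at 11.7 and 11.2 FPKM.

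Hox genes, which encode position along the body, gave a clear profile. They lie in 4 clusters, in which low-numbered paralog groups mark anterior and high-numbered groups posterior parts. The 39 genes matched 44 loci, of which 13 stood at 1 FPKM or more in both libraries and 19 had no count. Of all loci 36.2% stood at that level and 42.5% had no count, and of protein-coding loci 50.7% and 25.8%. The profile lies in which groups held the FPKM and not in these counts. Groups 4 to 9 held 92.9% and 90.5% of the summed Hox FPKM. Hoxd4 led at 77.3 and 51.9 FPKM, then Hoxd9 (23.1 and 23.3), Hoxd8 (19.0 and 20.0) and Hoxc6 (15.2 and 14.8). A second tier was lower. It held Hoxc9 (4.80 and 4.38), Hoxb6 (3.20 and 5.07), Hoxb3 (3.39 and 3.34), Hoxc8 (3.88 and 2.48), Hoxc10 (3.83 and 2.42), Hoxc4 (3.37 and 2.40), Hoxb7 (2.39 and 3.27), Hoxb2 (2.74 and 2.43) and Hoxb4 (1.15 and 1.14). The interval of Hoxd4 overlaps Mir10b and a predicted gene on the other strand, so its reads may hold theirs.

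Posterior groups had few counts. Of 11 loci in groups 11 to 13, 9 had no count, including Hoxd11, Hoxd12, Hoxd13, Hoxa11, Hoxa13, Hoxb13 and Hoxc12, and Hoxc11 had 0 and 2. Hoxc13, which also controls hair keratins, stood at 0.636 and 4.66 FPKM (9 and 78 counts). Group 10 was low apart from Hoxc10, with Hoxa10 at 20 and 11 counts and Hoxd10 at 16 and 12. By cluster, Hoxd held 71.2% and 65.6% of the Hox FPKM, Hoxc 19.5% and 22.03%, Hoxb 8.56% and 11.7% and Hoxa 0.699% and 0.757%. The Hoxa cluster is listed in part again on an unplaced scaffold of the files, so reads that match both copies may be lost and Hoxa is uncertain. Its 12 loci at 0 include Hoxa2, Hoxa3, Hoxa5 and Hoxa9, and Hoxa7 had 6 and 8 counts. At the low end of Hoxb, Hoxb5 had 14 and 15 counts, Hoxb8 6 and 18 and Hoxb9 7 and 2. Hoxc5 stood at 1.23 and 0.950 FPKM, Hoxd3 had 19 and 14 counts, and Hoxb1 and Hoxd1 had none.

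**Figure D3:**
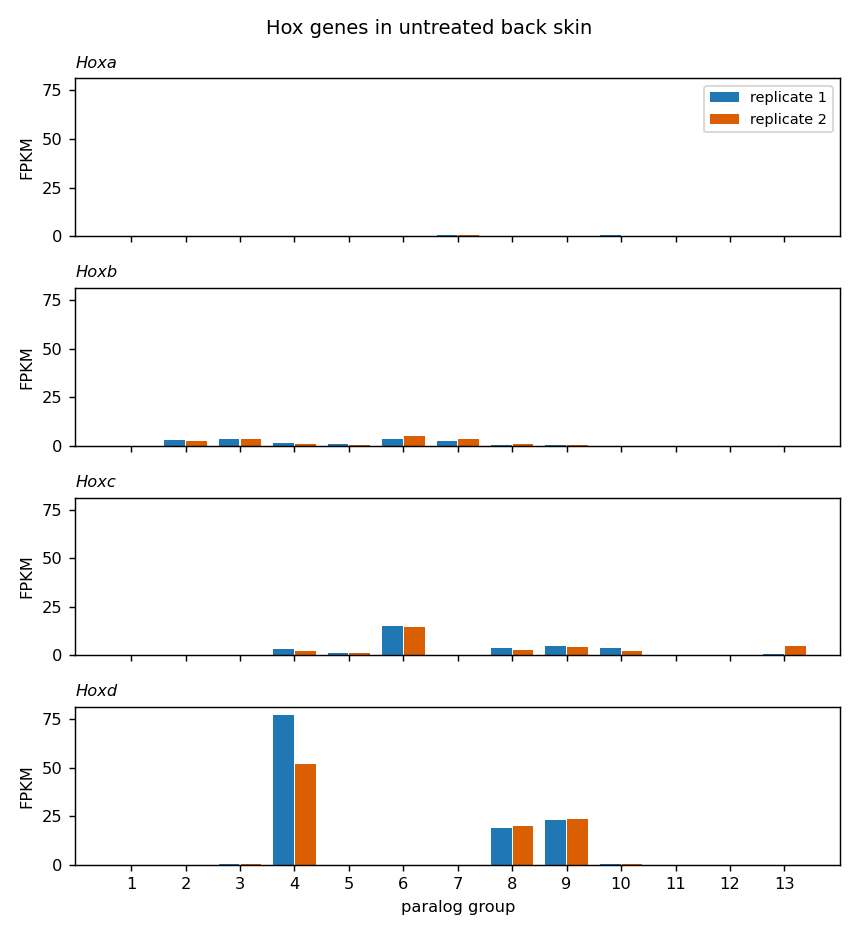
FPKM of Hox genes by paralog group in each cluster, for the loci on chromosomes, blue for replicate 1 and orange for replicate 2. Hoxd4, Hoxd8, Hoxd9 and Hoxc6 stand out in both libraries, and Hoxc13 has the only visible bars in groups 11 to 13 (0.636 and 4.66 FPKM).

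Genes without counts included the large chemosensory receptor families. Of all protein-coding loci 25.8% had no count. Of 5751 protein-coding loci without a count in either library, 1275 (22.2%) were named olfactory, vomeronasal or bitter taste receptors. Pseudogenes included, 1119 of 1139 loci named Olr had no count, a name that the files also give to Olr1, with a lectin domain, and to 1 locus with a scavenger receptor domain. Of 155 vomeronasal receptor loci 152 had no count, and of 35 bitter taste receptor loci 34. Olr63 stood at 2.19 and 1.42 FPKM (30 and 23 counts), the only olfactory receptor at 1 FPKM or more in both. By the first protein domain the files give, loci with an immunoglobulin V-set domain (337 of 419 at 0), a homeobox (99 of 180), a trypsin domain (69 of 130) or a somatotropin hormone domain (28 of 29) were at 0 more often than that share of 25.8%. Among loci with a protein kinase domain 26 of 278 were at 0. Among lincRNA loci 2388 of 3090 (77.3%) had no count.

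Markers of 10 other organs were checked in the same way. Of 95 loci 50 had no count in either library and 88 were under 1 FPKM in both. The liver genes Fga, Fgb, Apoa2, Hnf4a and Cyp7a1, the pancreas genes Ins1, Ins2, Gcg and Prss1, the kidney genes Umod, Nphs1 and Aqp2 and the testis genes Prm1, Prm2 and Tnp1 were at 0. The 7 loci at 1 FPKM or more in both were Aqp4, Cpa1 (11.4 and 9.25), Actc1, Myh6, Tnnt2, Ager (4.77 and 4.18) and Pomc (4.75 and 2.91). Aqp4, Actc1, Myh6 and Tnnt2 are also known from striated muscle, and Pomc from skin. The Y-linked genes Ddx3y, Eif2s3y, Usp9y, Kdm5d and Sry had no count in either library, and Xist was not matched.

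Promoter windows were read for the genes with a RefSeq entry under the same symbol, 13415 of 18010, from 250 bases before to 50 after the start. On either strand TATAAA was found in 26.7% of 60 muscle promoters, 41.1% of 56 hair follicle promoters, 16.9% of 71 epidermis promoters and 11.6% of 69 dermis promoters, against 9.50% of all 13415. A match to the MEF2 site, bound by the myocyte enhancer factors, was found in 15.0% of muscle promoters and 1.87% of all, and a CArG box in 8.33% and 1.33%. No match to the CArG box was found in the epidermis or dermis windows. In the order of level, TATAAA was found in 19.0% of the 100 most abundant genes, 6.71% of those at 10 to 100 FPKM and 21.4% of those at 0 counts. GGGCGG, the GC box, was found in 58.0%, 67.0% and 21.3% of the same sets. TATAAA was also counted between bases -45 and -16 from the start, on the strand of the gene. It was found there in 10% of muscle, 19.6% of hair follicle, 11.3% of epidermis and 4.35% of dermis promoters, against 2.22% of all. For the 100 most abundant genes, those at 10 to 100 FPKM and those at 0 counts the share was 9%, 1.14% and 5.85%. TATAAA and the MEF2 site can share bases, and a match is a description of letters and not a site in use. In the whole table of 33465 promoters 14.2% hold TATAAA, 3.29% the MEF2 site, 1.64% the CArG box and 33.1% GGGCGG.

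**Figure D4:**
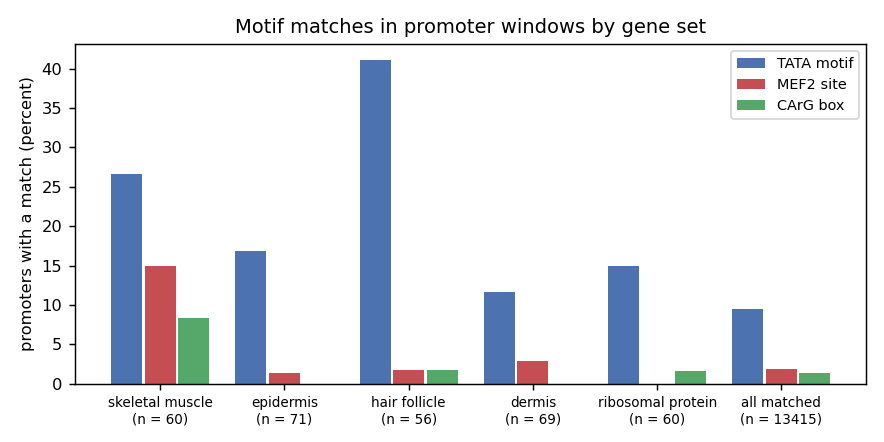
Percent of promoter windows with a match to the TATA motif, the MEF2 site or the CArG box, by gene set. Matches anywhere in the window on either strand are counted, and the number of windows stands under each name. Hair follicle genes have the highest TATA share (41.1%), and muscle genes the highest MEF2 (15.0%) and CArG (8.33%) shares.

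The libraries were alike in broad shape and differed in named blocks. Counts were scaled by TMM, which sets the bulk of genes equal, and 15277 loci with at least 10 counts in a library were compared. The median log2 ratio of replicate 2 over replicate 1 was 0.00, and the middle 50% lay from -0.32 to 0.32. At least 2-fold higher in replicate 2 were 945 loci (6.19%), and at least 2-fold higher in replicate 1 were 975 (6.38%). These shares are the background for the counts of list members that follow. With scaling by library size alone the median log2 ratio moved to 0.12 and the counts to 1176 and 798, which is 59.6% of the differing loci higher in replicate 2 against 49.2% under TMM. Across these loci FPKM correlated between the libraries with Spearman's rho of 0.964, a description across genes, which are not replicates.

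Lower in replicate 2 was the mitochondrial chromosome. Of 20 loci compared, 13 were at least 2-fold higher in replicate 1 and none in replicate 2, with a median log2 ratio of -1.09. All 13 protein-coding genes had a ratio below 0, from -0.90 for Mt-co1 to -2.50 for Mt-nd4. Fibrillar collagens had 4 of 10 loci past 2-fold in that direction (median -0.91), macrophage genes 5 of 14 (median -0.78) and class II genes 4 of 9 (median -0.94). Fast-fibre genes had 1 of 12, near the background share, with a median of -0.44. All 6 keratin-associated protein loci compared were at least 2-fold higher in replicate 1 (median -2.84), but on few counts. Krtap11-1 had 17 and 4, Krtap26-1 17 and 2, Krtap15-1 14 and 1 and Krtap7-1 13 and 4. The loci named here entered the comparison only through replicate 1, so their direction was largely set by the filter and is no result.

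Higher in replicate 2 were most inner root sheath genes. Of 9 inner root sheath loci 8 were at least 2-fold higher there and none in replicate 1, with a median log2 ratio of 1.81. Among the 8, Padi1 entered only through replicate 2, on 1 and 11 counts. Hair matrix regulators had 7 of 13 (median 1.10), and 1 the other way, Foxq1 (87 and 44 counts). Dlx3 had 66 and 453 counts, Msx2 72 and 325, Lef1 47 and 181 and Shh 19 and 80. Among the 7, Hoxc13 entered only through replicate 2, on 9 and 78 counts. The hair shaft list was split, with 4 of 12 loci past 2-fold in replicate 2, the keratins Krt35 and Krt85 among them, and 5 in replicate 1. The 5 were Krt36 (19 and 4 counts), Krtap11-1, Krtap26-1, Krtap15-1 and Krtap7-1, which entered only through replicate 1. In the other direction Dsg4 (3 and 33) entered only through replicate 2. Mast cell genes had 4 of 9 higher in replicate 2 (median 1.00), and clock genes 4 of 18 (median 0.33). Schwann cell genes had none past 2-fold in either direction among 16 loci.

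**Figure D5:**
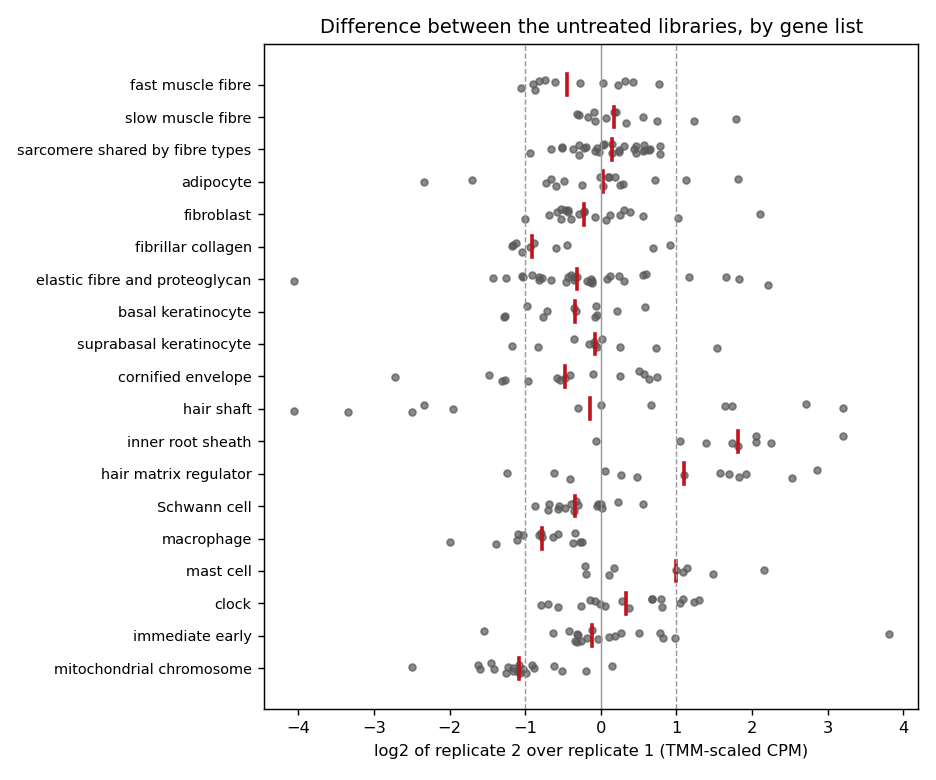
Log2 ratio of replicate 2 over replicate 1 of TMM-scaled CPM, for members of 18 lists and the mitochondrial chromosome with at least 10 counts in a library. Points are loci, red bars are medians, and dashed lines mark 2-fold: inner root sheath genes lie to the right (median 1.81), and mitochondrial loci to the left (median -1.09).

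Gene length varied with the ratio. Loci of 500 bases or less had a median log2 ratio of -0.25 (n = 663), and those over 4000 bases of 0.08 (n = 3029). Within the muscle lists the 33 loci of 2000 bases or less had a median of -0.28, with 10 above 0, and the 39 longer loci had a median of 0.30, with 30 above 0. Fast troponins and light chains are short and the pumps, channels and myosins are long, and the part of length in the ratios was not tested. Fibrillar collagens, with a median length of 5697 bases, were lower in replicate 2, while loci of that length as a whole had a median above 0. Inner root sheath loci had a median length of 2110 bases, where the median ratio of all loci was 0.05.

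Among named protein-coding genes with at least 100 counts in a library and some in the other, the widest difference was in Cyp1a1, a cytochrome P450 induced through the aryl hydrocarbon receptor, at chromosome 8, bases 62472095 to 62478147. It had 4559 counts (121 FPKM) in replicate 1 and 10 counts (0.224 FPKM) in replicate 2, a 543-fold difference with a 95% exact interval from 295 to 1132 that covers counting error only. Ahrr, the repressor induced through the same receptor, was 9.45-fold higher in replicate 1 (143 and 18 counts, 5.77 to 16.4). Other genes of that receptor were looked up after these values were seen. Cyp1b1 was 5.46-fold higher in replicate 1 (505 and 110 counts, 4.44 to 6.78), Aldh3a1 1.68-fold (161 and 114), Tiparp 1.499-fold (340 and 270) and Nqo1 1.37-fold (419 and 365). The receptor gene Ahr was 1.77-fold higher in replicate 1, and its partner Arnt 1.55-fold higher in replicate 2. Cyp1a2 had 0 and 1 count. Of the genes looked up afterwards, Cyp1b1 alone was past 2-fold among those with at least 10 counts in a library.

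The other genes with the largest ratios among named protein-coding genes with at least 100 counts in a library are on none of the gene lists, apart from a class II gene. Higher in replicate 1 were Fam50a (195 and 4 counts), Fam111a (1021 and 36), Tsen34l1 (183 and 10), Slc10a6 (107 and 11), the epoxide hydrolase Ephx2 (373 and 48) and the ubiquitin hydrolase Uchl3 (387 and 72). Higher in replicate 2 were the cysteine desulfurase Nfs1 at both of its loci (2 and 376 counts, 8 and 603), the class II gene RT1-DMb (2 and 123), Adgrb2 (16 and 628), Klkb1 (0 and 100), Apopt1 (4 and 117), Echs1 (11 and 233) and Ebna1bp2 (9 and 183). Klkb1 was at least 28.0-fold higher in replicate 2, with its 0 set to 3 counts. Nfs1, Apopt1 and Uchl3 each have 2 loci of the same name in the files, Tsen34l1 overlaps Rps9, and RT1-DMb is of a polymorphic family, so their reads may be split between copies. Differences in sequence between animals and differences in level cannot be told apart from counts.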

How the data were processed

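RNA sequencing of rat back skin was used from 2 untreated samples of 1 group. The authors deposited raw read counts per gene and FPKM per gene (counts scaled by gene length and by a constant of the library) for 34225 loci. The submitters' processing notes name the aligner HISAT2 (2.0.5), the read counter featureCounts (1.5.0-p3) and DESeq2 (1.16.1). The genome build and gene models behind the counts, whether counting used strand, and the role of DESeq2 were not given in the sources used here. In each library FPKM equalled the count divided by gene length and 1 constant, and that constant was not proportional to the library total.

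Total counts were 20166522 and 22086673, and 3 counts, the limit that a count of 0 allows by counting error alone, equal 0.149 and 0.136 CPM. Shares are a list's summed FPKM over that of all loci. Count shares carry 95% Wilson intervals. Ratios between the libraries used CPM after TMM scaling (edgeR 4.0.16, R 4.3.3) for loci with at least 10 counts in a library, with exact Clopper-Pearson intervals for single genes, which cover counting error only. The ratio step was tested on simulated counts that held counting error only. That test used library totals in place of TMM scaling and only well-counted loci. It covers neither the scaling nor loci near 10 counts. With 1 group no test across genes was made. Python 3.11.15, pandas 2.3.3 and scipy 1.17.1 were used.

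Gene lists of 976 symbols, of which 918 matched a locus, and the samples described were chosen with earlier results of these data known. Genes were named by rule: the 30 named loci of highest mean FPKM, the 4 highest members of each list and its members at 0, all members of families of up to 9 and all Hox genes, the 8 named coding genes with the largest ratio in each direction among those with at least 100 counts, 12 transcription factors and the EGFR family. Others, such as Krt16, Lgr5 and Shh, were added after their values were seen. Alternatives were raw counts, other sets of loci in the total, other floors and scalings, and each library alone. Treated samples were not used. Symbols that matched no locus are not analysed here. Names, neighbours and sequences from RefSeq (GRCr8) were matched by symbol. The coordinates of the files are of an unnamed build and were not mixed with them. Some items that these rules name are not reported here.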

Additional observations from a re-analysis of the deposited data

How the results depend on the processing

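The order of muscle, mitochondria, dermis, epidermis and hair follicle held under every total listed here, but the shares depend on what is summed. As shares of raw counts, the mean over the libraries was 27.02% for muscle, 1.92% for dermis, 0.291% for epidermis and 0.0908% for hair follicle. Over nuclear protein-coding loci alone it was 31.1%, 0.947%, 0.184% and 0.0703%. Without the 10 loci of highest mean FPKM it was 14.3% for muscle, 6.98% for the mitochondrial chromosome, 1.05% for dermis, 0.996% for fat, 0.205% for epidermis and 0.0783% for hair follicle. No value over nuclear loci exists for the mitochondrial chromosome. With each library alone the shares ran from 23.8% to 25.8% for muscle, 10.4% to 18.1% for the mitochondrial chromosome, 0.618% to 0.884% for dermis, 0.584% to 0.863% for fat, 0.141% to 0.156% for epidermis and 0.0488% to 0.0647% for hair follicle. A floor of 5 FPKM left 7668 loci in place of 12389, and each library alone held 12988 to 13193. Loci at 0 counts numbered 15514 to 15738 in each library alone. Loci past 2-fold between the libraries numbered 2955 with at least 1 count, 586 with at least 100 counts and 437 at 4-fold, against 1920. With 2 libraries, a share from 1 library always lies within 1 SD of the mean, so those ranges are no sign of stability. Chosen after seeing the data, the fat share without Car3 was 0.145% and the hair follicle share without Postn and Cd34 was 0.0326%. Depth limits low genes: by counting error alone, a count of 0 allows 0.149 CPM in replicate 1 and 0.136 in replicate 2. No paired analysis was possible because only 1 group was used.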
